A study of Mus musculus with 12 samples.

Results

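The collagen gene family was followed in 6 mouse pancreatic ductal adenocarcinoma cell lines, 52205, 52419, 52424, 53105, 53369 and 53371. Members were all genes whose symbol has the form Col, a type number, a and a chain number. This gave 40 of the 20432 genes measured, from 25 collagen types: 11 fibrillar genes, 6 type IV basement membrane genes and 23 others. A further 4 symbols of this form (Col6a6, Col9a1, Col19a1 and Col26a1) were not analysed here. Each line was sequenced once as the parental culture, labelled wild type, and once as the JAK1 knockout culture. The knockout cultures were made by infecting the parental line with a retrovirus that carries Cre recombinase and a puromycin resistance gene (pBabe-Cre-puro), followed by selection at 2, 4 and 7 µg/ml puromycin. JAK1 is a tyrosine kinase that couples cytokine receptors to STAT transcription factors. All cultures grew in the same medium with fetal bovine serum. No empty-vector culture was analysed here, so infection, selection and time in culture cannot be told apart from the loss of JAK1. There is 1 library for each line and condition, so the replicates are the 6 lines.

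Collagens are secreted or membrane-bound proteins whose chains wind into triple helices, and most types combine chains from different genes. Fibrillar collagens such as types I, III and V form the banded fibres of connective tissue, which in pancreatic tumours are laid down mainly by fibroblasts. Type IV collagen forms the sheet-like network of basement membranes under epithelia. Its Col4a1 and Col4a2 chains make the network found in nearly all tissues, while the Col4a3, Col4a4, Col4a5 and Col4a6 chains make networks that are restricted to certain tissues.

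The 12 libraries held 11.5 to 18.04 M reads in genes (M, 1000000 reads). Levels are given as normalised counts per 1000000 reads (CPM). A gene was tested if it reached 1 CPM in at least 6 libraries, which 12734 genes did. Jak1, the targeted gene, averaged 170.3 ± 26.7 CPM over the parental and 168 ± 44.2 over the Cre libraries (SD, n = 6 each), with ranges of 125 to 207 and 104 to 234. Since the exons that Cre removes are not named in the labels, a total over the gene is no check of the deletion. Summed over 8 ductal epithelial marker genes, levels ran from 445 to 12569 CPM in parental and 359.9 to 13204 in Cre libraries, lowest in line 52419 and next lowest in 53369. In the parental library of 52419 the epithelial cadherin Cdh1 was at 0.372 CPM and Krt8 at 0.818, so these 2 epithelial markers were nearly absent there. Of the same list, Krt18 stood at 253 CPM and Sox9 at 171 CPM in that library. Leukocyte markers summed to at most 1.98 CPM and endothelial markers to at most 6.85 CPM.

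Collagen transcripts made up 0.175% to 0.556% of all gene reads. Col4a1, Col4a2 and Col18a1, which encodes the basement membrane zone collagen that is the precursor of endostatin, were abundant in every library. These 3 genes held 61.6% to 85.7% of collagen reads in the libraries of 5 lines, and 35.5% and 44.7% in parental and Cre 53369. Per kilobase of transcript, the parental means were 119 ± 51.0 CPM for Col18a1, 115 ± 30.1 for Col4a1 and 75.6 ± 20.8 for Col4a2 (SD, n = 6). Next in this order came Col8a1 (34.1 ± 14.3), Col3a1 (27.3 ± 60.9) and Col1a2 (25.98 ± 63.4). The difference between Col18a1 and Col4a1 was within their spread, as were those between Col8a1, Col3a1 and Col1a2. The large spreads of Col3a1 and Col1a2 came from line 53369. This order depends on the transcript taken for the length. For Col18a1 it was 4791 bases, where the union of its annotated exons is 7021, and for Col1a2 it was 5348, where the union is 12426. Type IV chains took 30.8% to 62.9% of collagen reads, the fibrillar genes 2.65% to 43.3% and the others 19.99% to 44.7%. Of the 40 members 21 were tested, 7 fibrillar, 6 type IV and 8 others. Of the 19 below the filter, 11 stayed under 1 CPM in every library and 3 (Col1a2, Col6a3 and Col15a1) passed 10 CPM in at least 1 line.

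**Figure D1:**
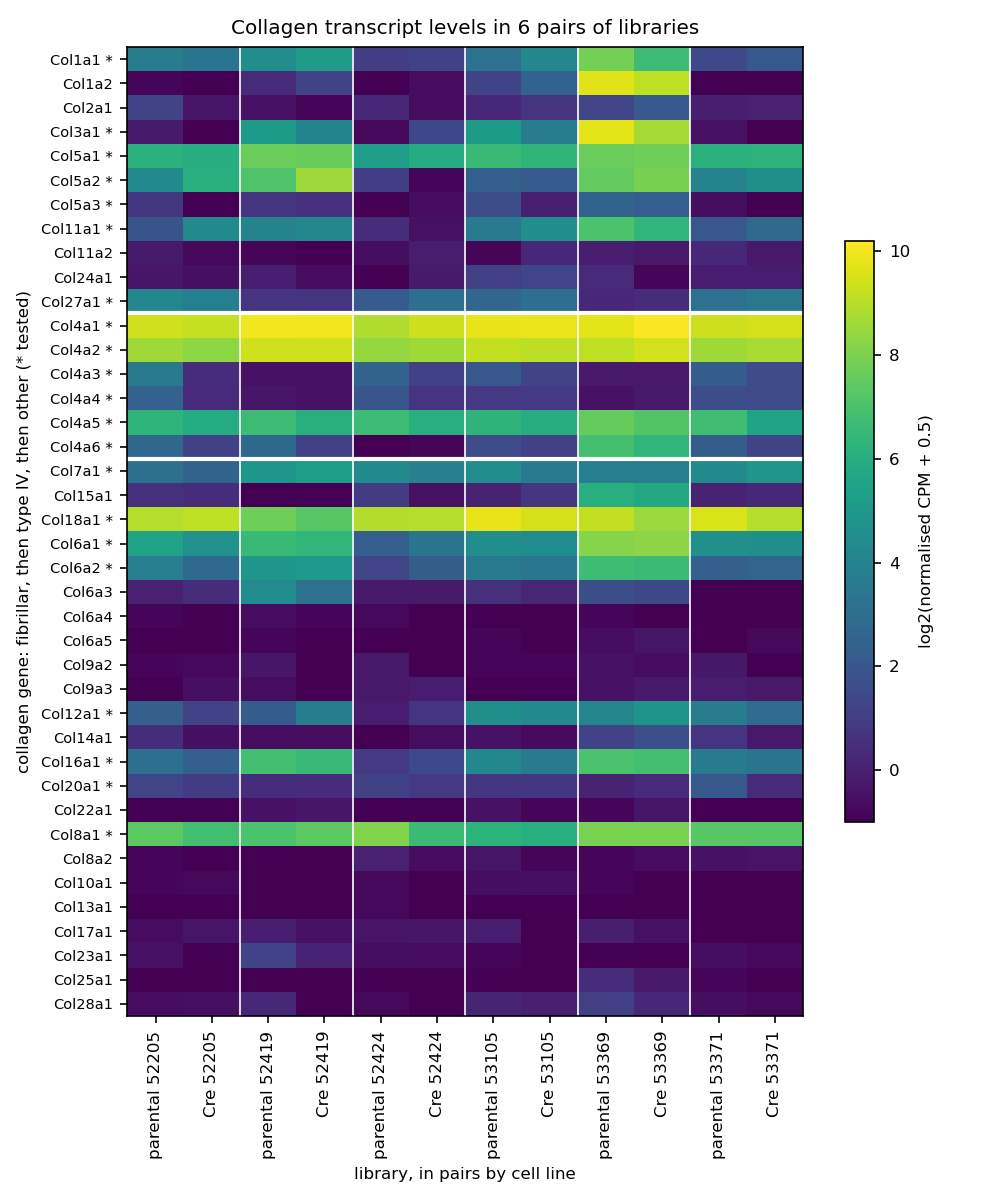
Levels of all 40 collagen genes (rows) in 12 libraries (columns, parental beside Cre for each line) as log2(CPM + 0.5); an asterisk marks the 21 tested genes and white bars part fibrillar, type IV and other genes. Col4a1, Col4a2 and Col18a1 are bright in every column, while Col1a2, Col3a1 and Col15a1 are bright in line 53369, where parental Col1a2 was at 831 CPM.

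Each Cre culture, made to delete Jak1, was set against its own parental line. The type IV chains Col4a5 and Col4a6 had the smallest p among the collagens and estimates below 0, while the estimates of the abundant chains Col4a1 and Col4a2 lay above 0. Col4a5 was 1.53-fold lower on the log2(value + 0.5) scale. It was the only tested collagen whose 6 pairs all had 1 sign, lower in 6 of 6. That is 1 of 21 members, close to the share of all genes tested, of which 4.56% were lower and 4.11% higher in 6 of 6. Changes are log2 differences on that scale, which understates the change of low genes, from limma with cell line as a block, adjusted by Benjamini-Hochberg over all 12734 genes. No collagen passed adjusted p under 0.05, where 3 genes did, 0.0236% of those tested. At an unadjusted p under 0.05, 4 members were lower (Col4a5, Col4a6, Col4a3 and Col18a1), against 8.18% of all genes, and 0 were higher, against 6.96% (15.1% in either direction). On the recovered reads edgeR called 0 members, beside 0.0393% of all genes lower. DESeq2 called 2, Col4a5 and Col4a6, both lower, beside 1.63% of all genes lower and 0.487% higher. The parental and Cre ranges overlapped for each of the 21, while 0.0550% of all genes were lower and 0.0393% higher with no overlap.

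By class, the 6 type IV genes had a median log2 change of -0.59, with 4 estimates below 0 and 2 above. It was -0.40 without pair 52205, and 0.039 over the 3 that the deposited log2 table holds (Col4a1, Col4a2 and Col4a5). Within lines the type IV median ran from -1.01 in 52205 to 0.095 in 53369. The summed type IV level was 1389 ± 355 CPM in parental and 1440 ± 415 in Cre libraries (SD, n = 6 each), so the median does not stand for a lower total. The 7 fibrillar genes had a median of 0.13, with 2 below and 5 above, and the 8 other genes a median of -0.18, with 6 below and 2 above (median -0.076 without 53105 and -0.10 without 52205). Over all 21 members the median was -0.15 with 12 below 0, beside a median of -0.00024 and 50.1% below 0 over all genes tested. The median over members was not alike between lines. It was -0.51 in 52205, -0.21 in 53105, -0.062 in 53371, -0.025 in 53369, -0.0076 in 52419 and 0.19 in 52424. The median over members was 0.029 in the authors' deposited log2 table, which holds 16 of the 21, and -0.040 without 53105, -0.083 without 52205 and -0.086 without 53371, so it has no firm direction. Without the pair of line 52424 the count at an unadjusted p under 0.05 was 7, beside 12.02% of all genes, and without any other pair it was 3 or 4.

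**Figure D2:**
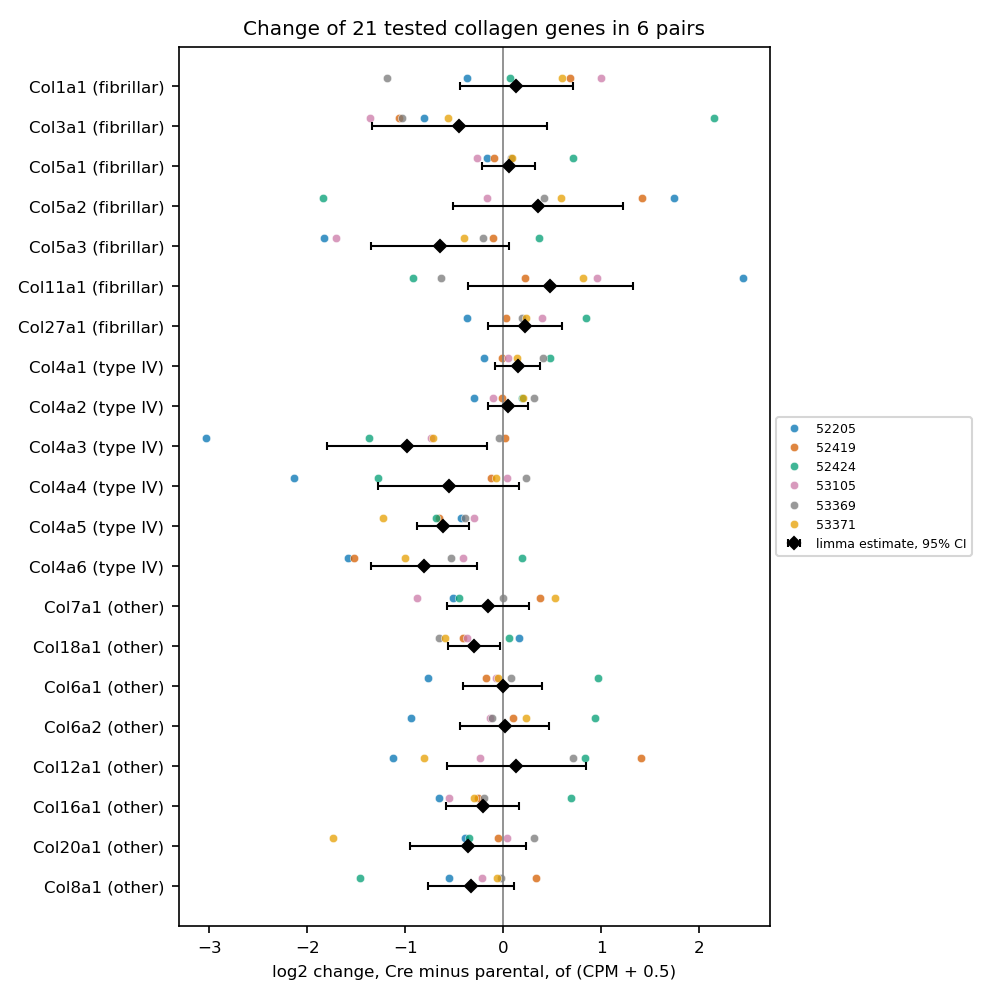
Log2 change, Cre minus parental, of the 21 tested collagen genes: coloured points are the 6 lines, black diamonds the limma estimates with 95% confidence intervals. All 6 points of Col4a5 lie below 0, from -1.23 to -0.30, while Col3a1, Col5a2 and Col11a1 spread to both sides.

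The 6 type IV genes lie in 3 head-to-head pairs, in which neighbours start close together and are read in opposite directions. On GRCm38 Col4a1 (chromosome 8, 11198423 to 11312889, minus strand) and Col4a2 (chromosome 8, 11312805 to 11449287, plus strand) start 84 bases apart by these gene ends. Their annotations overlap by 85 bases. Col4a3 (chromosome 1, 82586921 to 82722059, plus strand) and Col4a4 (chromosome 1, 82448419 to 82587034, minus strand) overlap by 114 bases. Col4a5 (chromosome X, 141475370 to 141689236, plus strand) and Col4a6 (chromosome X, 141165403 to 141474095, minus strand) are parted by 1274 bases. The library protocol names no strand-marking step, so reads from the overlapping ends cannot be assigned to 1 gene by strand. The promoters of the abundant pair Col4a1 and Col4a2 and of the pair Col4a5 and Col4a6, called lower by DESeq2, are shown so that their start regions can be compared. Each window runs from 250 bases before to 50 bases after a RefSeq start (GRCm38.p6), 5′ to 3′ on the gene's strand, with capitals for CCAAT and GGGCGG on either strand. For Col4a1, Col4a5 and Col4a6 the start used for the window is not the gene end given above, so the distances above do not hold between the windows. The windows are chr8:11312777-11313076 for Col4a1, chr8:11312555-11312854 for Col4a2, chrX:141475169-141475468 for Col4a5 and chrX:141474027-141474326 for Col4a6.
Col4a1: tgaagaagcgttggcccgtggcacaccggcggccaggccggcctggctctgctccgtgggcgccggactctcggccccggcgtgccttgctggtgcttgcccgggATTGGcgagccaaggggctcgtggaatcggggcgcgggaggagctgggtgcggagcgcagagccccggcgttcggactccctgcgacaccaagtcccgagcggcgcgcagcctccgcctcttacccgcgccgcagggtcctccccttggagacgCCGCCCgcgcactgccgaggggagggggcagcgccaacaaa
Col4a2: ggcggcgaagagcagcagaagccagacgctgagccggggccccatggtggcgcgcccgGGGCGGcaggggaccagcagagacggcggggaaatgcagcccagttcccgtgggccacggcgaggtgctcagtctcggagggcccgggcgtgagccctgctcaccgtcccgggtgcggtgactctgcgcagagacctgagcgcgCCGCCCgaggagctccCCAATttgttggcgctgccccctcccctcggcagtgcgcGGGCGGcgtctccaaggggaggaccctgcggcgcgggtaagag
Col4a5: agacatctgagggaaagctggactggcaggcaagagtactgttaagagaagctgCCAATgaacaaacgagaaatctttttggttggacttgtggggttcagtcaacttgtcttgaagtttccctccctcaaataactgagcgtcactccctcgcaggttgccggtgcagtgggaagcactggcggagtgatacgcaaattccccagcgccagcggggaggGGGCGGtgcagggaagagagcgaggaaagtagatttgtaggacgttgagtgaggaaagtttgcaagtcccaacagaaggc
Col4a6: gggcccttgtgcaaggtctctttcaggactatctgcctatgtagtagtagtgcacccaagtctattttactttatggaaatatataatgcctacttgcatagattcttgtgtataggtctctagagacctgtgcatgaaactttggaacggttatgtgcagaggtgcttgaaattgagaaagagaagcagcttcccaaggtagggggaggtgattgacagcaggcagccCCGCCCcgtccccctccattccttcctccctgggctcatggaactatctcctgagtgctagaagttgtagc
The first 2 windows share 78 bases read from opposite strands. Col4a1 held 1 CCAAT and 1 GGGCGG, Col4a2 1 and 3, Col4a5 1 and 1, and Col4a6 0 and 1. G and C made up 74.0% and 73.7% of the bases of Col4a1 and Col4a2, and 52.7% and 48.3% of those of Col4a5 and Col4a6. The GC box GGGCGG was in 22 of 34 promoter windows of 32 collagen genes, beside 35.7% of all 32851 windows, and CCAAT in 12 of 34 beside 37.4%. TTCNNNGAA, the letters of the element that STAT dimers bind, was in 2 of 34 (Col28a1 and Col6a5, both below the filter) beside 8.30% of all windows, and in 0 of the 19 windows of 17 tested members. TATAAA was in 5 of 34 beside 13.6%. Motifs were searched on both strands, and TTCNNNGAA reads the same on either. A match is a match of letters only.

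Col4a5 encodes the chain that is shared by both restricted networks and whose mutation causes Alport syndrome. Its parental and Cre levels were 79.8 and 59.0 in 52205, 102 and 64.7 in 52419, 103 and 63.9 in 52424, 77.1 and 62.4 in 53105, 189.6 and 144 in 53369 and 108 and 45.6 in 53371 (CPM). Every Cre library was lower than its parental partner, and both libraries of line 53369 were the highest of their group. The parental and Cre ranges overlapped. The means were 109.8 ± 41.1 CPM over the parental and 73.3 ± 35.5 over the Cre libraries (SD, n = 6 each). The log2 change was -0.62 (SE 0.12, 95% confidence interval -0.88 to -0.35, limma adjusted p = 0.140), and it lay between -0.68 and -0.49 with each pair left out. DESeq2 gave adjusted p = 9.85e-04, edgeR 0.140, and over all alternatives the adjusted p ran from 9.85e-04 to 1.00. The upper end came from the limma fit without the line block, which does not use the pairs. With the block kept, the highest limma adjusted p was 0.335, without 52419. In these bulk libraries fewer cells with a transcript and less transcript per cell cannot be told apart.

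Col4a6, which pairs with Col4a5 chains in the basement membranes of skin and smooth muscle, was low except in line 53369. Its parental and Cre levels were 6.38 and 1.79 in 52205, 6.24 and 1.84 in 52419, 0 and 0.0727 in 52424, 2.45 and 1.72 in 53105, 118 and 81.8 in 53369 and 4.41 and 1.94 in 53371 (CPM). It was lower in 5 of 6 Cre libraries, and in 52424 it had 0 reads in the parental and 1 in the Cre library. The log2 change was -0.81 (SE 0.24, limma adjusted p = 0.240), DESeq2 gave adjusted p = 0.0108, and the adjusted p ran from 0.0108 to 1.00 over the alternatives. The upper end was again the limma fit without the line block. With the block kept, the highest limma adjusted p was 0.425, without 52419. Per kilobase, Col4a5 was above Col4a6 in each of the 10 libraries with more than 3 reads of Col4a6, from 1.63 to 36.9 times. The lowest ratios were those of line 53369, at 1.63 and 1.80.

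Col4a3 and Col4a4, the partners of Col4a5 in the network of the kidney glomerulus, were low everywhere. Col4a3 was at 10.96 and 0.896 in 52205, 0.223 and 0.231 in 52419, 5.51 and 1.82 in 52424, 3.58 and 1.96 in 53105, 0.382 and 0.357 in 53369 and 4.49 and 2.54 in 53371 (CPM). Its log2 change was -0.98 (SE 0.37, limma adjusted p = 0.291), and -0.57 without pair 52205, where it went from 146 to 10 reads. Col4a4 was between 0.229 and 5.26 CPM in parental and between 0.231 and 2.45 in Cre libraries, with a change of -0.56 (SE 0.32, limma adjusted p = 0.434) and of -0.24 without 52205. Both genes were lowest in lines 52419 and 53369, with at most 5 reads in any library of these lines.

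Col4a1 and Col4a2 make up the network common to most basement membranes. Col4a1 was at 680.1 and 594 in 52205, 1015 and 1010.0 in 52419, 466 and 651 in 52424, 905 and 939 in 53105, 848 and 1128 in 53369 and 654 and 723 in 53371 (CPM), higher in 4 Cre libraries and lower in 2. Its log2 change was 0.15 (SE 0.10, limma adjusted p = 0.507), with a 95% confidence interval of -0.081 to 0.38. Col4a2 was at 387 and 315 in 52205, 669.7 and 666 in 52419, 340.0 and 388 in 52424, 584 and 544 in 53105, 561 and 697 in 53369 and 386 and 444 in 53371 (CPM), higher in 3 and lower in 3, with a change of 0.050 (SE 0.092, limma adjusted p = 0.823) and an interval of -0.16 to 0.26. Its estimate was -0.0028 without pair 53369. That of Col4a1 was 0.082 without 52424. As a description, with no test because these chains were picked after their values were seen, the log2 ratio of Col4a5 to Col4a1 was -0.76 ± 0.45 in Cre minus parental cells and that of Col4a5 to Col4a2 -0.67 ± 0.47 (mean ± SD, n = 6 pairs).

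**Figure D3:**
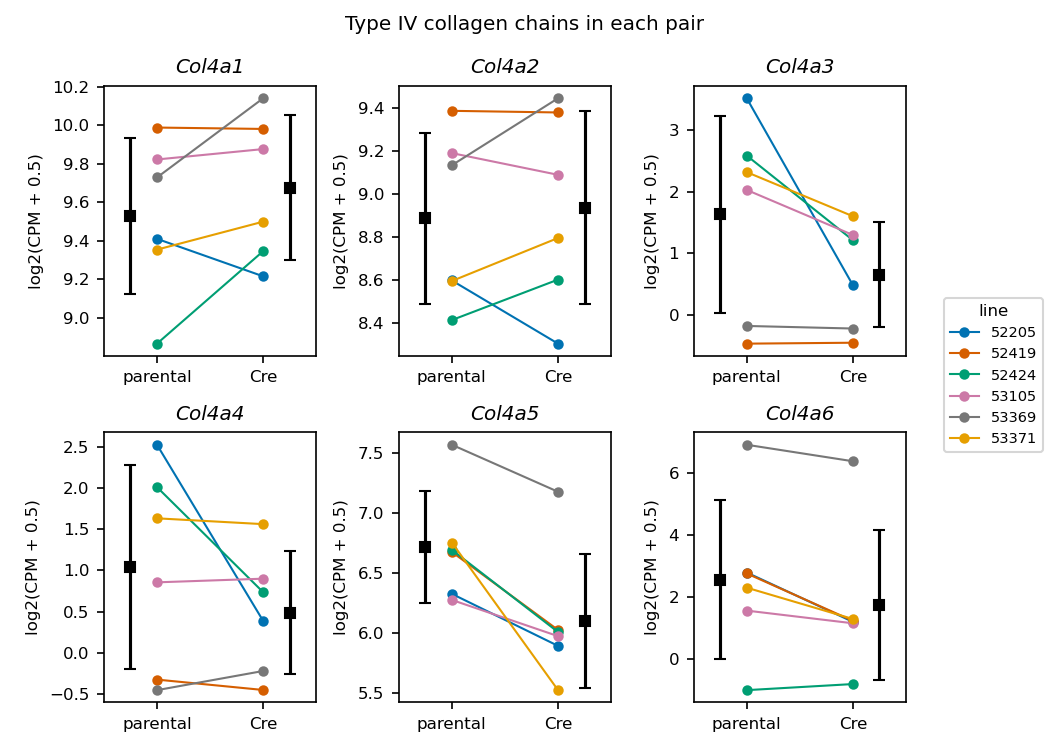
Levels of the 6 type IV chains as log2(CPM + 0.5), parental and Cre libraries of each line joined by a line; squares and bars are group means and SD (n = 6), and each panel has its own vertical range. Col4a5 slopes down in all 6 lines, Col4a6 in 5, while Col4a1 goes up in 4 lines and Col4a2 in 3.

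Within each library the paired chains Col4a1 and Col4a2 kept a narrow ratio. Per kilobase of transcript Col4a1 was 1.53 ± 0.136 times Col4a2 in parental and 1.63 ± 0.122 times in Cre libraries (SD, n = 6 each), with a range of 1.34 to 1.84 over all 12. The trimer holds these chains at a fixed proportion, with more of the Col4a1 chain. These ratios depend on the transcript taken for the length. With the union of all annotated exons the median over libraries was 1.44 in place of 1.58.

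Fibrillar collagens differed widely between lines, with a median SD between line means of 2.20 on the log2 scale over the 7 tested, beside 0.696 for the 6 type IV and 1.17 for the 8 other genes. The chains of type I and type III, the main fibre proteins of scar and tumour stroma, were most abundant in line 53369. In the other lines Col1a1 reached 36.0 CPM, Col3a1 34.2 and Col1a2 5.22. Types I and III took 34.1% of collagen reads in parental 53369 (95% Wilson interval 33.7% to 34.4%, counting error only) and 21.8% (21.5% to 22.1%) in its Cre library. In the other 10 libraries their share was 0.0988% to 2.00%.

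Col1a1 (chromosome 11, 94936224 to 94953042) encodes the chain that makes up most of type I collagen, and Col1a2 (chromosome 6, 4505618 to 4541543) its partner chain. Col1a1 was at 12.6 and 9.68 in 52205, 22.2 and 36.0 in 52419, 1.64 and 1.75 in 52424, 8.93 and 18.3 in 53105, 229.9 and 101 in 53369 and 2.28 and 3.72 in 53371 (CPM). Col1a2 was at 0.0751 and 0 in 52205, 0.818 and 1.92 in 52419, 0 and 0.145 in 52424, 1.99 and 5.22 in 53105, 831 and 553 in 53369 and 0 and 0 in 53371 (CPM). Col1a2 was above Col1a1 in both libraries of 53369 and in no other, and in 52205, 52424 and 53371 it had at most 2 reads in any library. Col1a1 had 168 reads in parental and 108 in Cre cells of 52205, beside 1 and 0 of Col1a2. A count of 0 allows up to 3 reads, 0.269 CPM in that Cre library. Pancreatic cancer cells have been described to make type I collagen from Col1a1 chains alone.

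Per kilobase, Col1a1 exceeded Col1a2 by 24.5 times in parental and 16.9 times in Cre cells of 52419, where Col1a2 had 11 and 25 reads. In 53105 the ratios were 4.05 and 3.17. In 53369 they were 0.2496 and 0.164, below 1, so the usual excess of the Col1a1 chain was not seen at the transcript level there. The Col1a2 length is uncertain, since the union of its annotated exons is 12426 bases and its principal transcript 5348. With the union length the ratios in 53369 were 0.524 and 0.345, still below 1.

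**Figure D4:**
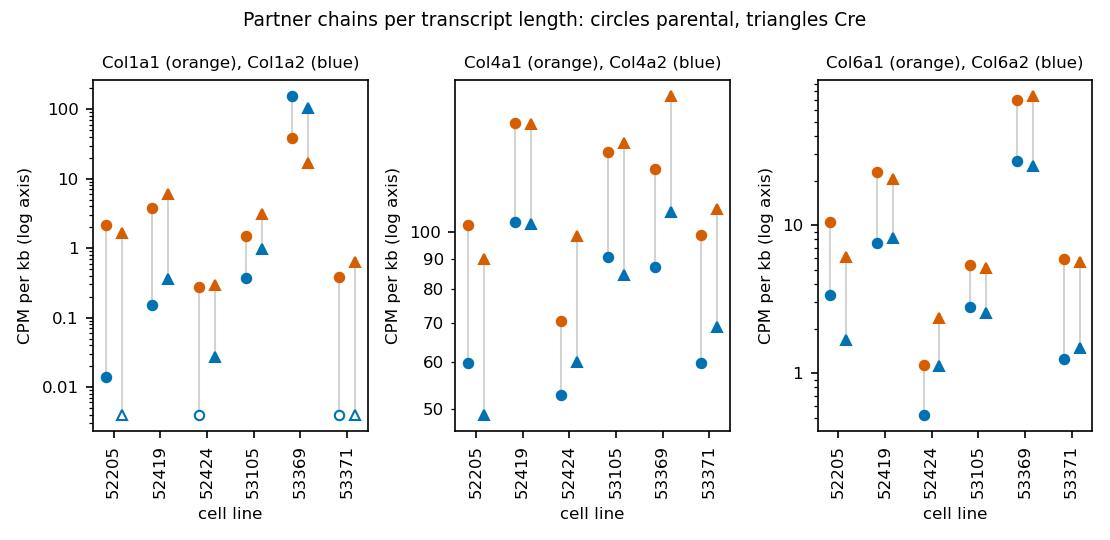
Partner chains in CPM per kilobase of principal transcript (log axes with a range for each panel) for the 6 lines; circles are parental and triangles Cre libraries, and open symbols at the bottom mark libraries with 0 reads. Col4a1 stays close above Col4a2 and Col6a1 above Col6a2, while the distance between Col1a1 and Col1a2 differs from line to line and turns over in 53369.

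Col3a1, the type III chain, was at 0.375 and 0 in 52205, 33.9 and 15.9 in 52419, 0.0861 and 2.11 in 52424, 34.2 and 12.99 in 53105, 843 and 413 in 53369 and 0.236 and 0 in 53371 (CPM). It was lower in 5 of 6 Cre libraries, with at most 5 reads in 52205 and 53371, and went from 1 to 29 reads in the 6th, line 52424. Its log2 change was -0.45 (SE 0.40, limma adjusted p = 0.614), or -0.97 without that pair and -0.26 without 53105. For Col1a1 the change was 0.13 (SE 0.26, limma adjusted p = 0.831), higher in 4 pairs and lower in 2, and it was -0.13 with library weights and -0.040 without 53105. The lowest change was that of 53369, at -1.19.

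Type V collagen nucleates type I fibrils and is usually built from Col5a1 and Col5a2 chains. Col5a1 was at 71.3 and 63.5 in 52205, 206 and 193 in 52419, 37.0 and 60.9 in 52424, 95.9 and 79.4 in 53105, 198 and 210.1 in 53369 and 70.3 and 74.8 in 53371 (CPM), highest in 52419 and 53369, with a change of 0.058 (SE 0.12, limma adjusted p = 0.843), or -0.072 without 52424. Col5a2 was at 19.7 and 67.0 in 52205, 139 and 373 in 52419, 1.55 and 0.0727 in 52424, 4.72 and 4.15 in 53105, 179 and 239 in 53369 and 15.6 and 23.7 in 53371 (CPM), with a change of 0.36 (SE 0.39, limma adjusted p = 0.677), which ranged from 0.083 without 52205 to 0.80 without 52424. The Cre library of 52419 and that of 52205 stood above their parental partners by 1.42 and 1.74 on the log2 scale, while in 52424 the level went from 18 reads to 1. Per kilobase, Col5a1 ranged from 0.407 to 18.8 times Col5a2 over the 11 libraries with more than 3 reads of Col5a2. Col5a3 was at most 5.43 CPM, with a change of -0.65, or -0.41 without 52205. The cartilage-type chain Col11a1 reached 128 CPM in parental 53369 and had a change of 0.48, from -0.92 in 52424 to 2.45 in 52205. That estimate was 0.089 without 52205, 0.76 without 52424 and 0.13 with library weights. Col27a1 was at 0.22, from 0.098 without 52424 to 0.34 without 52205, and had the reverse pattern over lines, at most 1.15 CPM in 52419 and 53369 and up to 18.2 in 52205. Limma adjusted p was at least 0.366 for these 3. Col2a1, Col11a2 and Col24a1 were below the filter, with at most 3.86 CPM.

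Fibroblast markers that are not collagens were followed beside these genes. Of 9 listed, 8 were measured, and they summed to 283 and 229 CPM in parental and Cre 53369, 127 and 104 in 52419, and 8.87 to 36.2 in the other 8 libraries. The receptors Pdgfra and Pdgfrb gave most of this sum, with 159.9 and 106 CPM in parental 53369. The stromal proteoglycan Dcn was at most 3.44 CPM, Postn at most 2.21 and Fap at most 0.520, with Fap at 0 in both libraries of 53369. Thy1 was at most 3.98 CPM. Pdgfra was lower in 6 of 6 Cre libraries, with a change of -0.71 (limma adjusted p = 0.0786), and Pdgfrb was at -0.050. The contractile genes Acta2 and Tagln were each higher in 5 of 6, with changes of 0.91 and 0.61 (limma adjusted p = 0.301 and 0.283), and in 53369 Acta2 was at 3.29 and 17.4 CPM in parental and Cre cells. Over the groups the sum was 8.90 to 283 CPM in parental and 8.87 to 229 in Cre libraries. The mesenchymal state markers Vim, Zeb1, Zeb2, Cdh2, Twist1 and Fn1 summed to 10884 and 11228 CPM in parental and Cre 53369, and 2354 to 7967 in the other lines. Cdh1 was at 17.5 and 36.4 CPM in 53369. The part of fibroblasts, or of a mesenchymal state of the line itself, in the fibrillar levels was not tested.

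Among the other types, Col18a1 had the smallest p. It was at 492 and 552 in 52205, 209 and 158 in 52419, 475 and 496 in 52424, 912 and 708 in 53105, 572 and 363 in 53369 and 759 and 501 in 53371 (CPM), lower in 4 Cre libraries and higher in 52205 and 52424. Its log2 change was -0.30 (SE 0.12, limma adjusted p = 0.298), lowest in 53369 at -0.65. Line 52419 held the lowest level in both groups. Col15a1, the closest relative of Col18a1, was present in 53369 at 64.7 and 55.9 CPM and at most 1.46 elsewhere.

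Type VI collagen, the beaded filament found around many cells, is built from Col6a1 and Col6a2 chains with 1 further chain, of which Col6a3 is the usual one. Col6a1 was at 42.9 and 24.9 in 52205, 94.2 and 83.5 in 52419, 4.65 and 9.60 in 52424, 22.2 and 21.002 in 53105, 289 and 306 in 53369 and 24.1 and 23.2 in 53371 (CPM). Col6a2 was at 13.2 and 6.63 in 52205, 30.1 and 32.3 in 52419, 2.07 and 4.44 in 52424, 11.1 and 10.1 in 53105, 107 and 98.8 in 53369 and 4.88 and 5.83 in 53371 (CPM). Both were highest in 53369 and lowest in parental 52424, and per kilobase Col6a1 was 2.93 ± 1.01 times Col6a2 in parental and 2.83 ± 0.772 times in Cre libraries (SD, n = 6 each), or a median of 5.52 times with exon-union lengths. Col6a3 was scarce, at 0.526 and 0.896 in 52205, 20.4 and 8.76 in 52419, 0.344 and 0.364 in 52424, 0.967 and 0.653 in 53105, 2.75 and 2.21 in 53369 and 0 and 0 in 53371 (CPM), and the alternative chains Col6a4 and Col6a5 had at most 4 reads. Line 52419 was the only one with more than 2.75 CPM of Col6a3. The changes of Col6a1 and Col6a2 were -0.0037 and 0.015 (SE 0.18 and 0.20), and the sign of each turned with pairs left out and with other settings, so no direction can be given.

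Col7a1, which forms the anchoring fibrils under skin epithelium, was at 8.26 and 5.65 in 52205, 29.1 and 38.1 in 52419, 19.5 and 14.1 in 52424, 22.2 and 11.9 in 53105, 13.6 and 13.6 in 53369 and 19.6 and 28.5 in 53371 (CPM), lower in 3 pairs and higher in 3, with a change of -0.15 (SE 0.19, limma adjusted p = 0.713), which ranged from -0.29 without 53371 to -0.0099 without 53105. The fibril-associated Col12a1 was at 4.88 and 1.97 in 52205, 4.46 and 12.7 in 52419, 0.430 and 1.16 in 52424, 23.4 and 19.9 in 53105, 16.6 and 27.6 in 53369 and 12.8 and 7.10 in 53371 (CPM), with a change of 0.13 (SE 0.32, limma adjusted p = 0.867), from -0.12 without 52419 to 0.38 without 52205. Col16a1, of the same class, stood at 95.4 to 132 CPM in 52419 and 53369 and at 1.29 to 18.03 in the other lines, with a change of -0.21, from -0.39 without 52424 to -0.12 without 52205. Col20a1 was near the filter, at 0.535 to 3.70 CPM, with a change of -0.36, or -0.086 without 53371. The network collagen Col8a1 was expressed in every line, from 65.3 to 269.8 CPM, while its possible partner Col8a2 had at most 6 reads. Col8a1 was lower in 5 of 6 Cre libraries, with a change of -0.33 (SE 0.19, limma adjusted p = 0.448), or -0.10 without 52424. Col17a1, the transmembrane collagen of hemidesmosomes, was nearly absent, at 0.150 and 0.269 in 52205, 0.446 and 0.231 in 52419, 0.258 and 0.291 in 52424, 0.398 and 0 in 53105, 0.459 and 0.214 in 53369 and 0 and 0 in 53371 (CPM). The remaining members below the filter were Col9a2, Col9a3, Col10a1, Col13a1, Col14a1, Col22a1, Col23a1, Col25a1 and Col28a1, with at most 2.86 CPM.

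Most tested collagens differed between lines. In the same fit the F test over lines called 20 of the 21 tested members at adjusted p under 0.05 (limma, Benjamini-Hochberg over all genes), beside 71.1% of all genes. Col20a1 was the exception (adjusted p = 0.288). The SD between line means exceeded the SD of the 6 Cre changes in 18 of 21 members. The medians of these SDs over members were 1.24 between lines and 0.626 between changes on the log2 scale, against 0.373 and 0.286 over all genes tested. So the median was also larger between lines over all genes, and their share with the larger SD between lines was not computed. A line mean averages the parental and Cre library, while a change is their difference, so noise of single libraries does not enter both SDs alike. The count of 18 therefore cannot be read as particular to collagens. The widest differences between lines among tested members were those of Col3a1 (SD 3.92) and Col5a2 (3.03), and the narrowest were those of Col4a1 (0.368) and Col20a1 (0.402). Of the 21, 13 had their highest library in line 53369. The share of all genes with their highest library in that line was not computed, so this count cannot be read as particular to collagens.

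Genes that modify, export, trim and cross-link collagen, or bind it at the cell surface, were taken as a list of 43, all measured, of which 36 were tested. None passed limma after adjustment over all genes, beside 0.0236% of all genes tested, and edgeR called 0, beside 0.0393% lower. DESeq2 called 2, the cross-linking enzyme Loxl1 and the prolyl hydroxylase subunit P4ha2, both lower, beside 1.63% of all genes lower and 0.487% higher. At an unadjusted p under 0.05, 6 were lower and 2 higher, beside 8.18% and 6.96% of all genes. The median log2 change was -0.11 with 23 of 36 below 0, beside a median of -0.00024 and 50.1% below 0 over all genes tested. Lower in 6 of 6 pairs were 3 of the 36 (Loxl1, P3h3 and Bmp1), beside 4.56% of all genes.

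Loxl1, a lysyl oxidase family enzyme that starts cross-links in elastin and collagen, was at 7.43 and 3.50 in 52205, 4.31 and 1.77 in 52419, 1.64 and 0.655 in 52424, 5.46 and 2.20 in 53105, 46.3 and 34.1 in 53369 and 9.37 and 6.001 in 53371 (CPM). Each Cre library was below its parental partner, and the ranges overlapped. The log2 change was -0.86 (SE 0.14, limma adjusted p = 0.131), DESeq2 gave adjusted p = 0.00336, and over the alternatives the adjusted p ran from 0.00336 to 1.00. The upper end came from the limma fit without the line block. Lox was below the filter and, with 31.7 and 39.6 CPM in 53369, at most 4.39 elsewhere. Loxl2 had a change of 0.18, or -0.039 with library weights and 0.014 without 52424, and Pxdn, the peroxidase that cross-links type IV collagen, -0.11, or -0.036 without 52419.

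Prolyl 4-hydroxylases stabilise the triple helix. P4ha2 was at 57.4 and 35.0 in 52205, 62.1 and 43.8 in 52419, 49.7 and 27.8 in 52424, 55.2 and 42.4 in 53105, 36.9 and 40.9 in 53369 and 86.1 and 61.0 in 53371 (CPM), lower in 5 of 6 pairs, with a change of -0.46 (SE 0.12, limma adjusted p = 0.204) and a DESeq2 adjusted p = 0.0482 (from 0.0482 to 1.00 over the alternatives). The upper end for P4ha2 came from the limma fit without the line block. P4ha1 had a change of -0.31, P4ha3 of 0.41 and the prolyl 3-hydroxylase family gene P3h3 of -0.37. The collagen chaperone Serpinh1 averaged 337 ± 127 CPM over the parental and 299.5 ± 163 over the Cre libraries (SD, n = 6 each), a change of -0.28, and the lysyl hydroxylase Plod2 at -0.10, from -0.26 without 52205 to -0.028 without 52424. Without 1 pair Serpinh1 came to -0.18 (52424), P3h3 to -0.24 (53371) and Ddr1 to -0.24 (53369). Among the proteases that remove propeptides, Adamts2 was at -0.64, Adamts14 at -0.46 and Bmp1 at -0.15, while Pcolce2, an enhancer of Bmp1, was at 0.56. The collagen receptor kinases Ddr1 and Ddr2 were at -0.16 and -0.46, and Ddr2 ranged from -0.72 without 53371 to -0.24 without 52205. Ddr2, a receptor for fibrillar collagens, reached 281 to 538 CPM in 52419 and 53369 and at most 8.96 in the other lines. Its change was 0.032 in 52419 and -0.19 in 53369. In the other lines, with 4 to 106 reads in a library, it was -1.56 (52205), -1.25 (52424), -0.65 (53105) and 0.86 (53371). Adjusted p for the genes of this paragraph was 0.204 or higher by limma.

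**Figure D5:**
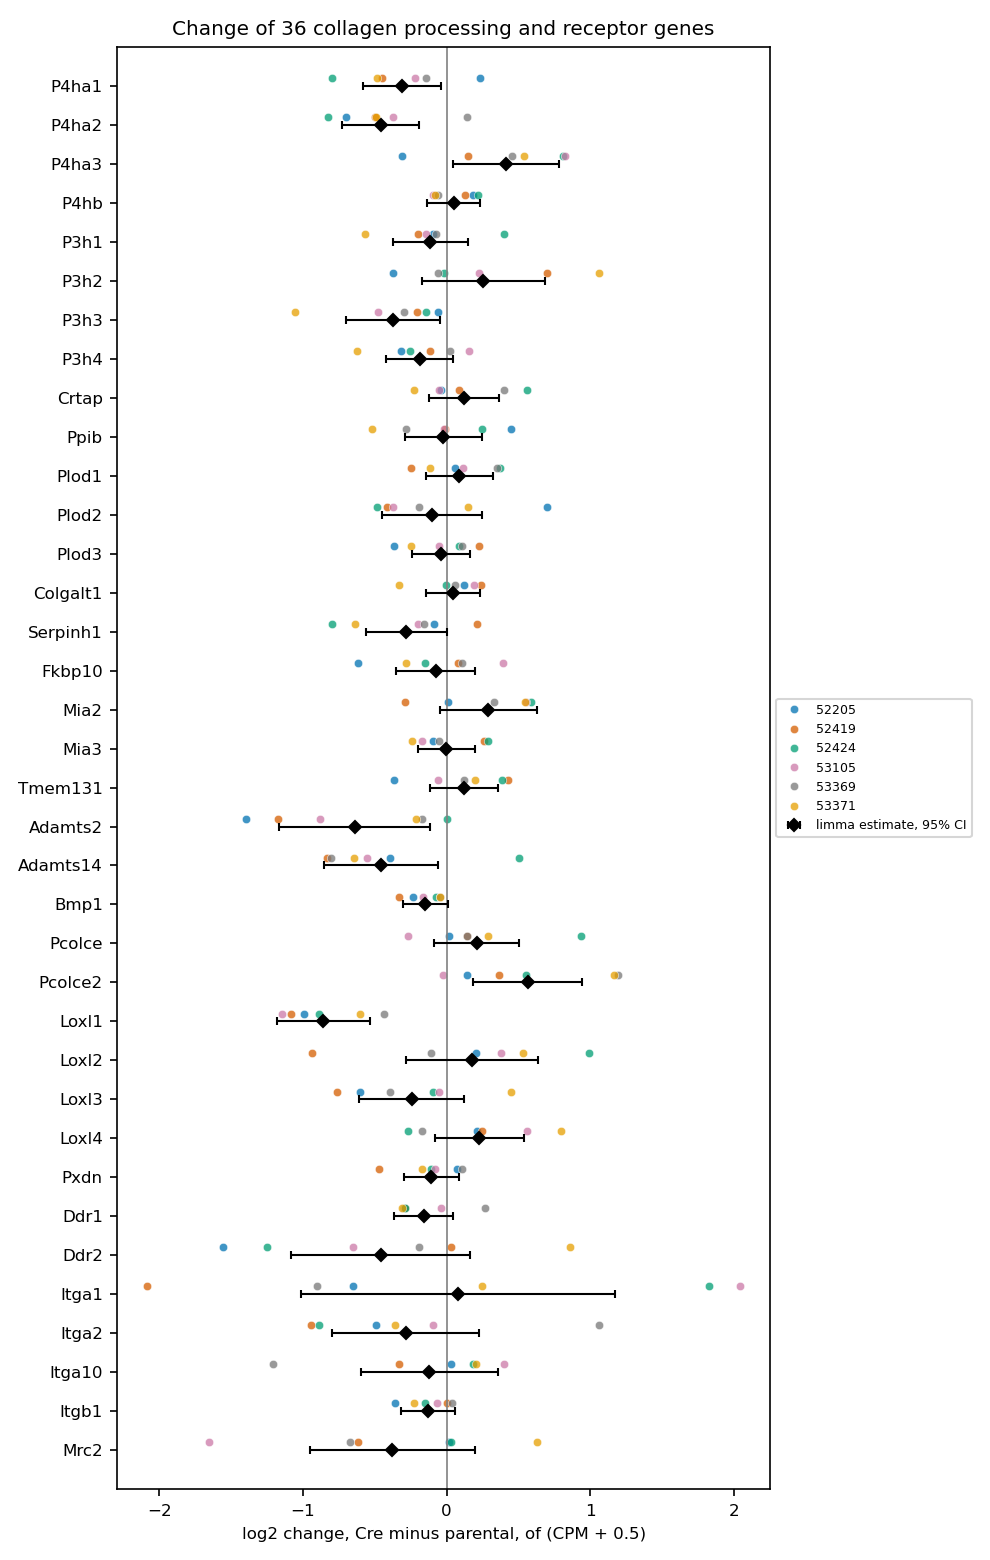
Log2 change, Cre minus parental, of the 36 tested genes that process or bind collagen; coloured points are the 6 lines and black diamonds the limma estimates with 95% confidence intervals. All 6 points of Loxl1 lie below 0, from -1.14 to -0.44, and those of Pcolce2 lie above 0 in 5 of 6 lines.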

How the data were processed

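Poly(A)-selected RNA was sequenced, per the labels' protocols. FastQC 0.11.9, featureCounts, edgeR and the builds GRCm38 and mm10 are named in the submitters' processing notes, and the sources used here give no aligner. Each value of the linear table that the authors deposited is a signal, by its steps the reads of a gene per 1000000 after TMM scaling. All values above 0 were whole multiples of 1 step per library (tolerance 0.01, 100% of values), which gave back the reads. The authors' deposited log2 table of 10903 genes served as an alternative. Symbols came from RefSeq for 19448 Entrez genes and from GENCODE for 11, and 973 stayed unnamed. Lengths are those of the longest principal GENCODE M21 transcript.

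After adding 0.5 and taking log2, a limma-trend model (3.58.1, R 4.3.3) with line as a block was fitted and tested 2-sided. The series describes isogenic pairs, and deviations from group means correlated at 0.732 to 0.946 across genes within lines. Each line gave 1 library per condition, so with the block p-values rest on how the Cre minus parental changes differ from line to line. The block takes the differences between line means out of the Cre comparison. The alternatives were 2 pseudocounts, 2 filters, another scaling, library weights, no block, each pair left out, edgeR 4.0.16 and DESeq2 1.42.0. The members and lists were chosen with earlier results of these data known. Named were all members, 10 chosen processing genes and any other with an unadjusted p under 0.05. Intervals and floors cover counting error only.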

Additional observations from a re-analysis of the deposited data

Results flagged for a closer look

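In 108 groups of 6 values (log2 levels in parental or Cre libraries, and log2 changes), 8 had an extreme value whose gap to the next, divided by the range of the group, passed 0.625, the critical value for 6. Chance flags about 5% of groups, and values of 1 gene are not independent of each other. Line 53369 stood above the others for Col4a5, with a gap of 0.630 of the range in parental and 0.697 in Cre libraries, and for Col4a6 in Cre libraries (0.708). Line 52424 had the highest change of Col3a1 (0.771), Col5a1 (0.635), Col16a1 (0.664) and Adamts14 (0.673). Line 53371 had the lowest change of Col20a1 (0.659).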

How the results depend on the processing

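The count of collagens called by limma was 0 in each limma setting run, the fit without the line block included. DESeq2 called 2 collagens and 2 processing genes, beside 1.63% of all genes lower and 0.487% higher. The count of 4 collagens at an unadjusted p under 0.05 (15.1% of all genes) was 2 of 16 in the deposited log2 table (all genes 15.2%), 8 of 40 with no filter (11.4%) and 1 of 21 without the block on pairs (1.14%). With each pair left out it was 3 to 7, highest without 52424 (all genes 12.02%). With no filter 33 of 40 differed between lines, where the share over all genes was not computed. Signs turned for genes with estimates near 0, and the cause was not tested. With library weights Col1a1 was at -0.13, Col6a1 at 0.0040, Col6a2 at -0.0055 and Loxl2 at -0.039. Col6a1 was at 0.0039 with a pseudocount of 0.1, and Col6a2 at -0.016 with 2, -0.011 by DESeq2 and -0.031 by edgeR. Over the pairs left out Col1a1 ran from -0.040 to 0.40, Col4a2 from -0.0028 to 0.12, Col5a1 from -0.072 to 0.12, Col6a1 from -0.20 to 0.15, Col6a2 from -0.17 to 0.21 and Col12a1 from -0.12 to 0.38. At 11.5 to 18.04 M reads, depth limits the genes near the filter of 1 CPM, and no difference can be read from members with a few reads.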

Other observations

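Some collagens were found in 1 line and nearly nowhere else. The transmembrane collagen gene Col23a1 had 25 reads in parental and 7 in Cre cells of 52419, and at most 3 in any library of the other lines. Col25a1, another transmembrane collagen, had 11 and 5 reads in 53369 and at most 1 elsewhere.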
